A study of Mus musculus with 19 samples.

Results

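The 10 genes described here mark neutrophils; they were read from 24972 genes measured by RNA sequencing in mouse plantaris tendon and followed across 5 groups of libraries. The 10 members are Csf3r, Cxcr2, Ly6g, S100a8, S100a9, Mpo, Elane, Ltf, Camp and Ngp; they were chosen by name, with earlier results of these data known, and all 10 are listed. The plantaris is an ankle tendon of the hindlimb, and the study concerned mice with a targeted deletion of Scx, the gene of scleraxis, a transcription factor that marks tendon cells. Of the 19 libraries, 4 came from Scx- and 4 from Scx+ mice 7 days into a growth stimulus, and 4 from Scx- and 4 from Scx+ mice 14 days into it. All 16 of these libraries came from mice given tamoxifen, whereas the 3 control libraries came from Scx+ mice without tamoxifen and without the stimulus. The alleles, the driver of the deletion, the kind of stimulus, the strain, sex and age are not given in the labels, and no unstimulated Scx- group was analysed here. In every comparison with the control the stimulus and tamoxifen therefore cannot be told apart, and for Scx- neither can the genotype. The labels do not say whether each library is its own animal, and each p measures only the spread between libraries, which may be technical.

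Values are the authors' scaled signal per gene, rescaled here so that the median gene was alike in all libraries; how many reads a unit stands for is unknown. Deposited library totals ran from 36.6 to 79.8 M units. The smallest step between low deposited values was 1.28 to 1.99 units in the controls and 0.592 to 1.12 in the stimulated libraries. A control value of 0 thus rests on a coarser step. Scx lay between 5.71 and 17.2 units in Scx- libraries at day 7 and between 1.66 and 5.84 at day 14. In Scx+ libraries it was 2773 to 8044 units at day 7 and 2096 to 5093 at day 14, and in controls 319 to 593. A list of 12 skeletal muscle genes took 0.283% to 4.78% of the signal in Scx- libraries at day 7, 0.0264% to 1.62% in Scx+ libraries at day 7, and 3.46% to 15.6% in Scx- libraries at day 14. In Scx+ at day 14 the list took 0.193% to 7.22%, against 20.6% to 24.7% in the controls, none of its genes being listed at 0 in all controls. Against the control, 8 of the 12 muscle genes were lower in Scx- at day 7 and 10 in Scx+ at day 7, where 25.9% and 27.5% of all genes tested were lower. In Scx- at day 14, 1 was lower and 1, Myh7, was higher, where 18.3% of genes were lower, and in Scx+ at day 14, 8 were lower, where 25.0% of genes were. Muscle content thus moves with the comparisons against the control; its part in the results was not tested. At day 14, Scx- replicates 1 and 2 held 13.3% and 15.6% muscle signal, and replicates 3 and 4 held 3.55% and 3.46%; the members' main results for that group are also given without the first pair, where Ltf no longer reached 10 units in 3 libraries and was not tested.

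Neutrophils are short-lived granulocytes that leave the bone marrow under the cytokine G-CSF, whose receptor Csf3r encodes, and enter tissue along gradients of chemokines read by Cxcr2. Their granule proteins are mostly made in sequence in the marrow: the proteases and peroxidase of primary granules (Elane, Mpo) in promyelocytes, then the secondary granule proteins (Ltf, Camp, Ngp) in myelocytes. S100a8 and S100a9 form calprotectin, an abundant cytosolic metal-binding complex, and Ly6g is a surface protein used to identify mouse neutrophils. Mature neutrophils in tissue carry little mRNA for primary granule proteins. In these bulk libraries, fewer cells of a type and less RNA per cell cannot be told apart.

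The transcription factors PU.1 and C/EBP are known regulators of granulocyte genes, so the bases upstream of 4 members are shown. These are the calprotectin pair, the surface marker Ly6g, and Csf3r, the member called in each comparison with the control. The signals of the calprotectin pair rose and fell together between stimulated libraries, though not between the controls. All 10 members were found in the RefSeq promoter table (GRCm38.p6). Each stretch runs 5′ to 3′ on the gene's strand and ends before the first annotated transcribed base. Capitals mark the letters GAGGAAGT (PU.1), TTGCNNAA (C/EBP), both searched on both strands, and TATAAA on the gene's strand.
S100a8, chr3:90668821-90668977, plus strand: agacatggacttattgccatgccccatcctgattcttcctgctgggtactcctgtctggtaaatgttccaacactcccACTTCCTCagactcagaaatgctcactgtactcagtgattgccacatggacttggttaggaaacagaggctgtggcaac
S100a9, chr3:90695722-90695971, minus strand: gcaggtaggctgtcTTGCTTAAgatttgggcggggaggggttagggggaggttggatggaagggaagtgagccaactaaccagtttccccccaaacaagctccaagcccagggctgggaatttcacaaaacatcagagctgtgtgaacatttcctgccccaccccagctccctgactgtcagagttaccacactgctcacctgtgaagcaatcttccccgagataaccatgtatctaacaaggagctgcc
Ly6g, chr15:75155011-75155239, plus strand: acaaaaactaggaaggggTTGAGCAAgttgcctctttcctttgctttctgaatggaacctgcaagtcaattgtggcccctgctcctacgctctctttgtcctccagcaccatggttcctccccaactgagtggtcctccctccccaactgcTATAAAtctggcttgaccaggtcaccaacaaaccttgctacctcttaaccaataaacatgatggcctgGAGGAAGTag
Csf3r, chr4:126024409-126024549, plus strand: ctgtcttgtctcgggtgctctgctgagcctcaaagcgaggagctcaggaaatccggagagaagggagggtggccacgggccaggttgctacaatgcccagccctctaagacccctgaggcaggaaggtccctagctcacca
In the full windows of 250 bases before the RefSeq start, GAGGAAGT was present for S100a8, Ly6g, Elane and Mpo, that is 4 of 10 members, against 2.79% of 27025 genes in the table with it in at least 1 window. TTGCNNAA was present for S100a9, Ly6g, Ltf and Ngp, also 4 of 10, against 10.8% of genes. TATAAA was present for S100a8, between the printed stretch and the RefSeq start, and for Ly6g, against 8.94% of genes. None of these matches overlapped another motif. None of the 3 was found in the windows of Cxcr2, Camp or Csf3r, which says only that these letters are not there.

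Csf3r (chromosome 4, 126024550 to 126044440, plus strand, GRCm38), the G-CSF receptor gene, was the member with the clearest difference from the control. Its rescaled signal was 1183, 1697, 1101 and 1577 in Scx- libraries at day 7, and 1229, 819, 752 and 964 in Scx+ at day 7. At day 14 it was 329, 915, 354 and 441 in Scx- and 581, 457, 285 and 425 in Scx+, against 95.3, 28.7 and 38.2 in the controls. Every stimulated library lay above every control library, and within each genotype every day 14 library lay below every day 7 library. Group means were 1389 ± 292 in Scx- at day 7, 941 ± 212 in Scx+ at day 7, 510 ± 275 in Scx- at day 14 and 437 ± 122 in Scx+ at day 14 (SD, n = 4 each), against 54.1 ± 36.0 in the controls (SD, n = 3). On the log2(value + 2) scale used throughout, which understates changes of low genes, Csf3r was 4.79 ± 0.38 higher than the control in Scx- at day 7 (SE, adjusted p = 4.89e-08, limma). It was 4.23 ± 0.38 higher in Scx+ at day 7 (adjusted p = 1.81e-07, limma). At day 14 it was 3.25 ± 0.38 higher in Scx- (adjusted p = 7.87e-06, limma) and 3.11 ± 0.38 higher in Scx+ (adjusted p = 5.83e-06, limma). The Scx- day 14 difference was 3.01 without the muscle-rich pair (adjusted p = 2.27e-05, limma). These 4 comparisons share the same 3 control libraries.

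Between the days, Csf3r fell by 1.55 ± 0.35 on the log2 scale in Scx- (day 14 against day 7, adjusted p = 0.0155, limma). Without the muscle-rich pair of Scx- day 14 libraries the difference was -1.78 (adjusted p = 0.0274, limma), and with muscle signal as a covariate it was -1.47 and no longer passed (adjusted p = 0.0545, limma). Leaving out any 1 of 3 libraries, namely replicate 2 or replicate 4 of Scx- day 7 or replicate 1 of Scx- day 14, moved its adjusted p to between 0.0594 and 0.0631. In Scx+ the day 14 minus day 7 difference was -1.12 ± 0.35, which did not pass (adjusted p = 0.229, limma), although the groups did not overlap there either. Between genotypes Csf3r did not pass at either day: Scx- minus Scx+ was 0.56 ± 0.35 at day 7, with a 95% interval of -0.18 to 1.30 (adjusted p = 0.799, limma), and 0.14 ± 0.35 at day 14 (adjusted p = 0.886, limma).

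Csf3r is also transcribed in monocytes and macrophages, so its levels are set beside the list of 10 macrophage and monocyte genes. The list summed to 961 to 2245 ppm of a library's signal in Scx- at day 7, 875 to 1126 ppm in Scx+ at day 7, 267 to 588 ppm in Scx- at day 14 and 453 to 744 ppm in Scx+ at day 14, against 162 to 306 ppm in the controls, and none of the 10 was listed at 0 in every control. Against the control, 9 of the 10 were higher in Scx- at day 7, 9 in Scx+ at day 7, 5 in Scx- at day 14 and 7 in Scx+ at day 14, where 32.3%, 33.8%, 25.5% and 30.9% of all genes tested were higher. In Scx- at day 14, 6 of the 10 were lower than at day 7, where 3.86% of genes were lower. Without the muscle-rich pair 3 of the 10 were lower, where 1.26% of genes were. The list thus moved with the control and time comparisons of Csf3r, and its part in them was not tested. Over the 16 stimulated libraries the Pearson correlation of Csf3r, on the log2 scale, was 0.87 with Csf1r and 0.85 with Adgre1, the genes of the list so compared. With other members it was 0.27 for S100a8, 0.30 for S100a9 and 0.50 for Cxcr2. This is a description, since the libraries fall into groups that differ.

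Cxcr2 (chromosome 1, 74153989 to 74161246, plus strand) encodes the receptor for the CXC chemokines that draw neutrophils, and it was listed at 0 in all 3 controls. Its rescaled signal was 101, 8.60, 24.1 and 8.33 in Scx- libraries at day 7 and 81.0, 45.1, 25.2 and 55.5 in Scx+ at day 7. Day 14 values were 41.1, 85.9, 0 and 3.30 in Scx- and 46.6, 4.49, 3.44 and 1.68 in Scx+. All day 7 libraries and all Scx+ day 14 libraries were above the controls, and 1 Scx- day 14 library was listed at 0 as they were. The gene was higher than the control in Scx- at day 7 (adjusted p = 0.0136, limma) and in Scx+ at day 7 (adjusted p = 0.00207, limma). It did not pass in Scx- at day 14 (adjusted p = 0.0541, and 0.599 without the muscle-rich pair, limma) or in Scx+ at day 14 (adjusted p = 0.118, limma). Cxcr2 was highest in that pair among the Scx- day 14 libraries, so leaving the pair out could only lower its difference from the control. Some alternatives did pass it in Scx- at day 14: library totals, a pseudocount of 0.5 and the replicate block (adjusted p = 0.0481, 0.0249 and 0.0199, limma), and some single libraries left out. In Scx+ at day 14 a pseudocount of 0.5, the block and the fit without that pair did (adjusted p = 0.0337, 0.0455 and 0.0478, limma). No fold is given against a group listed at 0, and the call in Scx- at day 7 was lost with a pseudocount of 10 (adjusted p = 0.0544, limma).

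Ly6g (chromosome 15, 75155240 to 75159126, plus strand), the surface marker, was near the lower edge of what these libraries record. It was listed at 0 in 11 of the 19 libraries and was highest at 7.998 units in Scx- day 14 replicate 1. Its other values above 0 were 1.75 and 4.69 in Scx- at day 7, 1.43, 0.548 and 2.04 in Scx+ at day 7, 2.67 in 1 Scx+ day 14 library and 1.19 in 1 control library. All 8 values were whole multiples, within 0.02 steps, of the library's smallest step in the deposited values, at most 7 steps. No library reached 10 units, so Ly6g was not tested, and the groups overlap in every comparison.

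**Figure D1:**
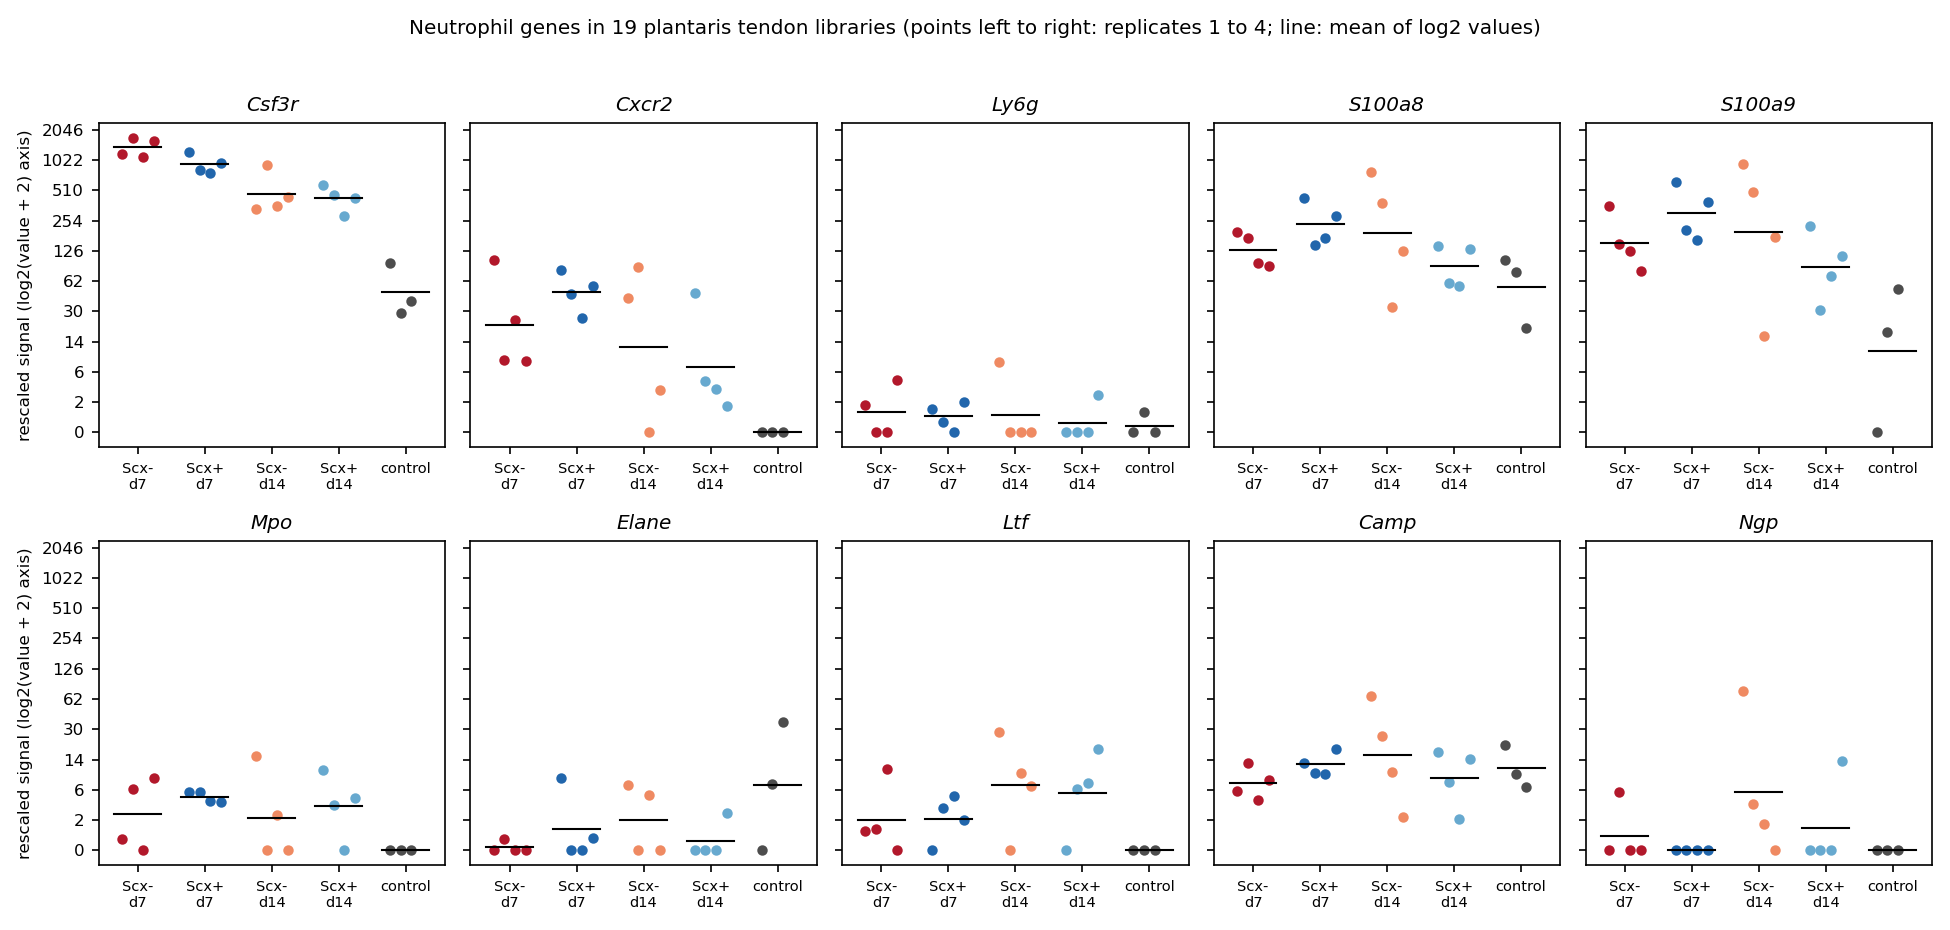
Rescaled signal of the 10 neutrophil genes in each library, on a log2(value + 2) axis in signal units. Points are libraries, left to right by replicate number within a group, and the line is the mean of the log2 values. All stimulated libraries lie above all controls for Csf3r, while Ly6g, Mpo, Elane and Ngp are listed at 0 in 7 to 14 of the 19 libraries.

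S100a8 (chromosome 3, 90668978 to 90670035, plus strand) and S100a9 (chromosome 3, 90692632 to 90695721, minus strand) lie 22596 bases apart and encode the calprotectin subunits. S100a8 gave 195, 171, 94.0 and 89.1 units in Scx- libraries at day 7 and 425, 145, 170 and 281 in Scx+ at day 7. By day 14 it gave 782, 385, 33.7 and 127 in Scx- and 142, 59.1, 54.7 and 133 in Scx+, against 102, 76.2 and 19.7 in the controls. The Scx+ day 7 libraries did not overlap the controls, and the other 3 stimulated groups did. S100a8 was 2.07 ± 0.80 log2 units higher than the control in Scx+ at day 7 (SE, adjusted p = 0.0332, limma), a call that leaving out control replicate 3, Scx+ day 7 replicate 1 or Scx+ day 7 replicate 4 removed (adjusted p = 0.183, 0.0875 and 0.0643, limma). The difference from the control was 1.23 ± 0.80 in Scx- at day 7 (adjusted p = 0.197), 1.78 ± 0.80 in Scx- at day 14 (adjusted p = 0.0796) and 0.69 ± 0.80 in Scx+ at day 14 (adjusted p = 0.478), and limma passed none of these. In Scx- at day 14 it was 0.27 without the muscle-rich pair (adjusted p = 0.770, limma). That pair held the highest Scx- day 14 values of S100a8, so leaving it out could only lower the difference.

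S100a9 gave 354, 147, 126.4 and 79.0 units in Scx- libraries at day 7 and 617, 203, 164 and 388 in Scx+ at day 7. Day 14 values were 925, 491, 16.02 and 174 in Scx- and 223, 31.1, 70.5 and 111 in Scx+, against 0, 17.9 and 51.0 in the controls. Both day 7 groups lay wholly above the controls, whereas both day 14 groups overlapped them. It was 3.58 ± 1.17 log2 units higher than the control in Scx- at day 7 (adjusted p = 0.0151, limma) and 4.55 ± 1.17 higher in Scx+ at day 7 (adjusted p = 0.00299, limma). At day 14 it was 3.93 ± 1.17 higher in Scx- (adjusted p = 0.0125, limma) and differed by 2.79 ± 1.17 in Scx+, which did not pass (adjusted p = 0.0525, limma). Without control replicate 1, listed at 0, neither Scx- difference passed (adjusted p = 0.113 at day 7 and 0.0850 at day 14, limma). Without the muscle-rich pair, the Scx- day 14 difference was 2.14 and did not pass (adjusted p = 0.155, limma). That pair held the highest Scx- day 14 values of S100a9. Leaving it out kept only replicates 3 and 4 and could only lower the difference.

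Within the stimulated libraries the calprotectin genes kept close to each other. The ratio of S100a9 to S100a8 signal was 0.857 to 1.82 in Scx- and 0.965 to 1.45 in Scx+ libraries at day 7. At day 14 the ratio was 0.475 to 1.38 in Scx- and 0.526 to 1.57 in Scx+ libraries. In the controls it was 0, 0.234 and 2.58. Control replicate 1 thus held S100a8 at 102 units, within the range of the stimulated groups, with S100a9 listed at 0, while control replicate 3 had more S100a9 than S100a8. The spread among Scx- day 14 libraries was wide for both genes, 33.7 to 782 for S100a8 and 16.02 to 925 for S100a9, and the upper 2 values of each were those of the muscle-rich replicates 1 and 2.

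**Figure D2:**
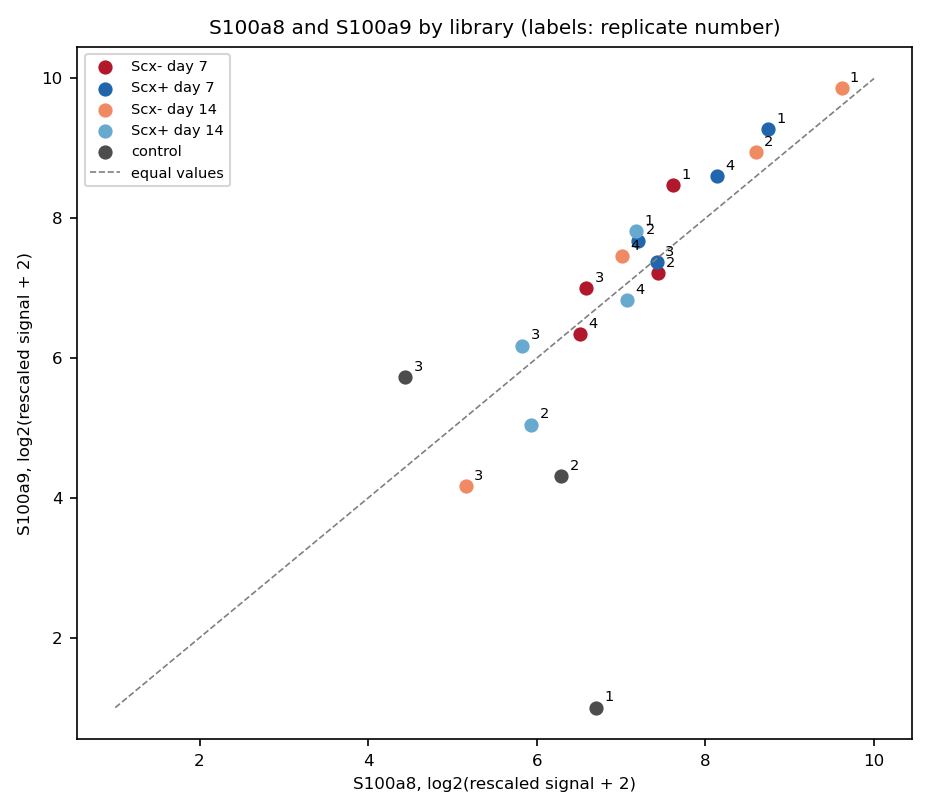
S100a9 against S100a8 in each of the 19 libraries, both as log2(rescaled signal + 2), labelled by replicate number; the dashed line marks equal values. The 16 stimulated libraries lie along the line from 33.7 to 782 units of S100a8, and the 3 controls scatter around it, 1 of them with S100a9 listed at 0.

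Mpo (chromosome 11, 87793581 to 87804413, plus strand) encodes myeloperoxidase of the primary granules and was listed at 0 in all controls. It was 0.596, 6.19, 0 and 8.46 in Scx- libraries at day 7 and 5.64, 5.58, 4.21 and 4.05 in Scx+ at day 7. Day 14 values were 15.2, 0, 2.47 and 0 in Scx- and 10.7, 3.65, 0 and 4.69 in Scx+. The 4 Scx+ day 7 libraries were all above the controls, and each other stimulated group held at least 1 library listed at 0. Only 2 libraries reached 10 units, so the gene was not tested. Mpo shares 512 exon bases with Gm11505, an antisense gene; whether the counting used strand is not given in the sources used here.

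Elane (chromosome 10, 79886247 to 79888215, plus strand), the neutrophil elastase gene, was listed at 0 in 11 of the 19 libraries and was highest in 1 control library. It was 0, 0.613, 0 and 0 in Scx- libraries at day 7, 8.58, 0, 0 and 0.679 in Scx+ at day 7, 6.86, 0, 5.06 and 0 in Scx- at day 14 and 0, 0, 0 and 2.67 in Scx+ at day 14, against 0, 7.14 and 36.2 in the controls. It was not tested, since only control replicate 3 reached 10 units, and the groups overlap. Elane ends 2637 bases before Cfd on the same strand, an adipocyte gene. Cfd signal was 166 to 5531 units in Scx- and 485 to 1458 in Scx+ libraries at day 7, then 2432 to 23317 in Scx- and 656 to 7391 in Scx+ libraries at day 14, against 50187 to 78115 in the controls. Cfd was thus highest in the controls, which also hold the highest Elane value, and its part in the Elane values was not tested.

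The secondary granule genes were low. Ltf (chromosome 9, 111019271 to 111042767, plus strand), which encodes the iron-binding protein lactoferrin, was listed at 0 in all controls. It was 1.15, 1.24, 10.9 and 0 in Scx- libraries at day 7 and 0, 3.24, 4.88 and 2.04 in Scx+ at day 7. At day 14 it was 27.7, 0, 9.69 and 6.75 in Scx- and 0, 6.195, 7.42 and 18.1 in Scx+. Each stimulated group held 1 library at 0, and no comparison passed; the adjusted p against the control was 0.0592 in Scx- and 0.0775 in Scx+ at day 14 (limma).

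Camp (chromosome 9, 109847379 to 109849617, minus strand), the cathelicidin gene, was above 0 in all 19 libraries. It was 5.84, 12.9, 4.32 and 8.04 units in Scx- at day 7, 12.9, 9.86, 9.60 and 18.3 in Scx+ at day 7, 66.3, 25.2, 10.1 and 2.27 in Scx- at day 14 and 16.9, 7.47, 2.05 and 14.3 in Scx+ at day 14, against 20.4, 9.53 and 6.58 in the controls. All 4 stimulated groups overlapped the controls. Its differences from the control lay between -0.49 ± 0.76 (Scx- day 7) and 0.44 ± 0.76 (Scx- day 14) log2 units, with adjusted p between 0.593 and 0.890 (limma). The 95% intervals run from -2.08 to 1.10 at the first and from -1.15 to 2.02 at the second, so changes within those ranges are not excluded.

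Ngp (chromosome 9, 110419747 to 110423012, plus strand), which encodes a neutrophilic granule protein, was listed at 0 in 14 libraries, among them all 3 controls and all 4 Scx+ day 7 libraries. Above 0 it was 5.52 in 1 Scx- day 7 library, 75.4, 3.79 and 1.69 in Scx- at day 14 and 13.4 in 1 Scx+ day 14 library. The 75.4 units of Scx- day 14 replicate 1 are 66 of that library's steps, so they do not rest on a single step. Ngp was not tested, since 2 libraries reached 10 units.

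Scx- day 14 replicate 1 was the highest of the 19 libraries for 7 of the 10 members: S100a8, S100a9, Ly6g, Mpo, Ltf, Camp and Ngp. It was not high for Csf3r, for which it was the lowest of its group, and its macrophage list, at 267 ppm, was also the lowest of its group. Its muscle share was 13.3%, and its part in these values was not tested.

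Levels of different genes were compared per kilobase of annotated exon. In Scx- at day 7 the order was Csf3r at 385 ± 80.8 units per kb, S100a9 at 338 ± 233 and S100a8 at 198 ± 77.3, with Cxcr2 at 11.6 ± 14.5 and Camp at 10.3 ± 4.92 (SD, n = 4 each). In Scx+ at day 7 it was S100a9 at 657 ± 397, S100a8 at 368 ± 184, Csf3r at 261 ± 58.6, Cxcr2 at 17.0 ± 7.62 and Camp at 16.7 ± 5.36 (SD, n = 4 each). Within each trio the neighbours differ by less than the larger SD of each pair, as do Cxcr2 and Camp. These genes were measured in the same libraries, so the SDs between libraries do not test their order within a library. The trio stood more than 10-fold above Cxcr2 and Camp. The other 5 members were at most 2.35 units per kb on average in both day 7 groups. In the controls S100a8 averaged 95.001 units per kb, S100a9 44.0, Camp 16.04, Csf3r 14.98 and Elane 14.7.

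Counts of members are read against all genes tested. Of the 10 members, 6 reached 10 units in at least 3 libraries and were tested (Csf3r, Cxcr2, S100a8, S100a9, Ltf and Camp). Against the control, 3 of the 6 were higher in Scx- at day 7, where 32.3% of 16625 genes were higher, and 4 of the 6 in Scx+ at day 7, where 33.8% were. At day 14, 2 of the 6 were higher in Scx-, where 25.5% of genes were, and 1 in Scx+, where 30.9% were. With so many genes called, these counts do not set the members apart from the rest of the genes.

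Between genotypes no member passed at either day. In Scx- against Scx+ at day 7, where limma called 0.770% of genes in either direction, 0 of the 6 members passed and 0 had an unadjusted p under 0.05. The differences, Scx- minus Scx+, were -0.84 ± 0.74 for S100a8 (95% interval -2.40 to 0.72), -0.98 ± 1.09 for S100a9 (-3.27 to 1.32) and -1.09 ± 1.06 for Cxcr2 (-3.33 to 1.14) on the log2 scale. At day 14, where limma called 0.517% of genes, again 0 members passed and 0 had an unadjusted p under 0.05. There the differences were 1.09 ± 0.74 for S100a8 (-0.47 to 2.65), 1.14 ± 1.09 for S100a9 (-1.15 to 3.43) and 0.67 ± 1.06 for Cxcr2 (-1.56 to 2.90). Without the muscle-rich pair of Scx- libraries the day 14 differences turned to -0.42 for S100a8, -0.65 for S100a9 and -1.45 for Cxcr2. That pair, left out after seeing the data, held the highest Scx- day 14 values of each of these genes. Leaving it out could therefore only lower the differences, and the part of muscle in this was not tested. The intervals leave room for differences of several-fold either way.

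The test of whether the genotype effect differed between the days called 0.0180% of genes and 0 of the 6 members, with 0 at an unadjusted p under 0.05. S100a8 had the lowest unadjusted p of the members, 0.0828, with a day 14 effect 1.93 ± 1.05 log2 units above the day 7 effect (adjusted p = 0.9999, limma), or 0.42 above it without the muscle-rich pair. Beside these genotype comparisons, red cell precursor genes moved with genotype at day 7: 4 of 6 tested were lower in Scx-, and the list of 8 summed to 1.23 to 6.37 ppm in Scx- against 114 to 500 ppm in Scx+, with Epb42, Klf1 and Rhag listed at 0 in all controls. Of the macrophage list 9 of 10 differences, Scx- minus Scx+ at day 7, were positive and 1 gene passed: Fcgr1, an Fc receptor, was 1.36 ± 0.30 log2 units higher (adjusted p = 0.0388, limma), a call lost when any 1 of 8 libraries was left out, with adjusted p up to 0.194. All 12 muscle and all 6 NADPH oxidase differences were positive at day 7 too, and none of these passed. The part of these lists in the member values was not tested.

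Between the days, 1 of the 6 members (Csf3r) was lower in Scx- at day 14 than at day 7, where 3.86% of genes were lower. In Scx+, where limma called 0.0301% of genes in either direction, 0 members passed and 2 (Csf3r and Cxcr2) had an unadjusted p under 0.05. Groups did not overlap for 2 members in Scx+, Csf3r and S100a8, both lower at day 14; 6.11% of all genes were lower without overlap there. Day 14 minus day 7 in Scx+ was -1.37 ± 0.74 for S100a8 (adjusted p = 0.547), -1.77 ± 1.09 for S100a9 (adjusted p = 0.611) and -2.48 ± 1.06 for Cxcr2 (adjusted p = 0.411), and limma passed none. In Scx- it was 0.56 ± 0.74 for S100a8 (adjusted p = 0.694), 0.35 ± 1.09 for S100a9 (adjusted p = 0.883) and -0.72 ± 1.06 for Cxcr2 (adjusted p = 0.727, limma).

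**Figure D3:**
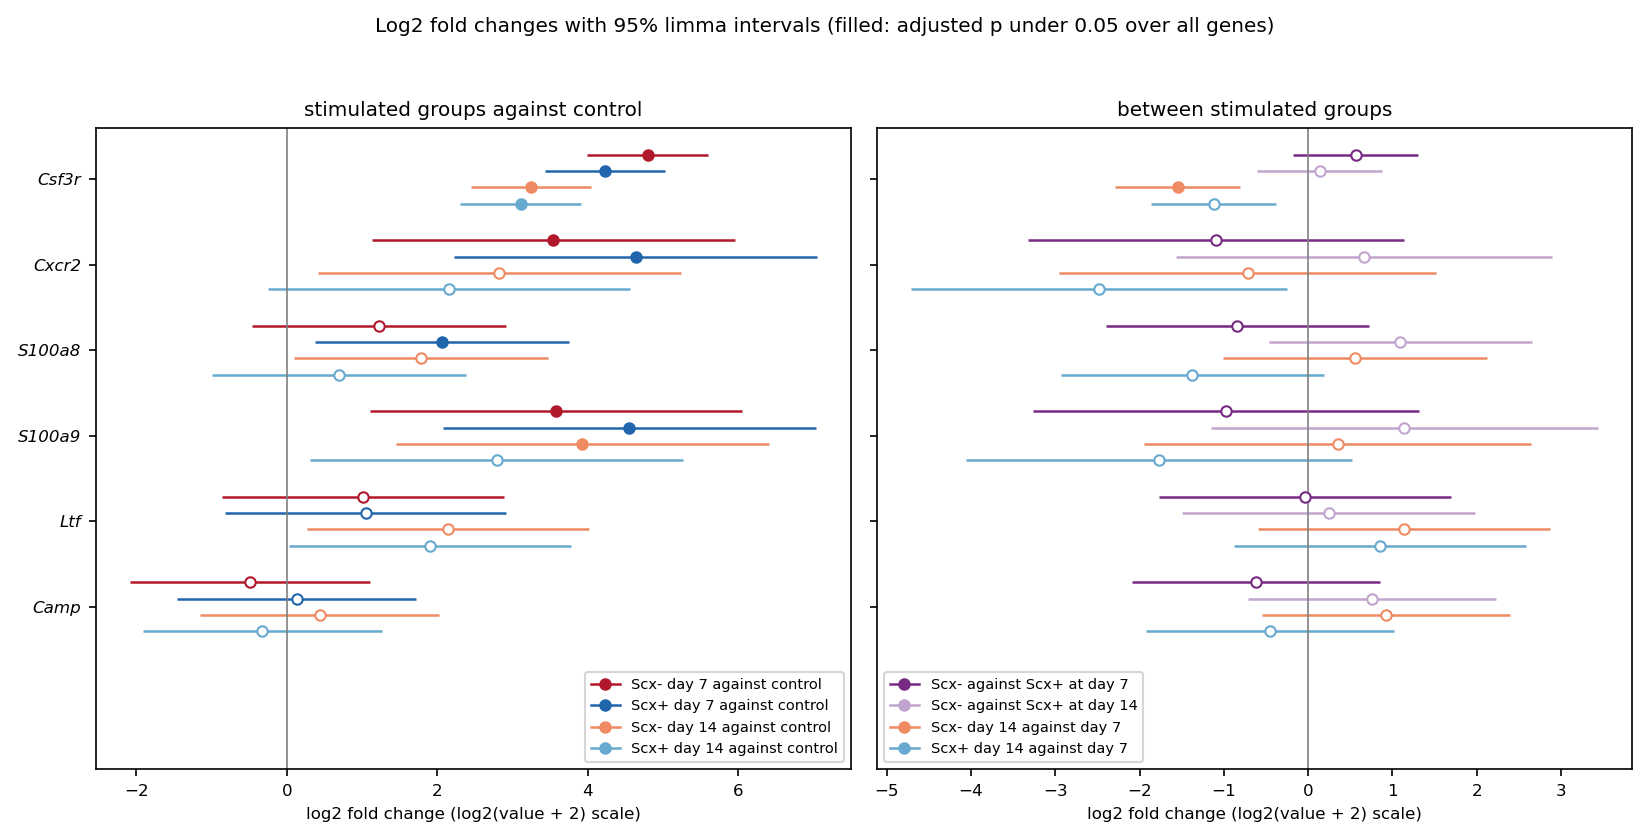
Log2 fold changes, on the log2(value + 2) scale, of the 6 tested members with 95% limma intervals, against the control (left) and between stimulated groups (right); filled points passed an adjusted p of 0.05 over all genes. Csf3r is filled in all 4 comparisons with the control and in Scx- day 14 against day 7, and no point is filled between genotypes.

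In the authors' deposited table, which lists the same 6 members, Csf3r and Cxcr2 passed an adjusted p of 0.05 in all 4 comparisons with the control. Of its 15951 genes, 9110 passed against the control in either direction in Scx- at day 7 and 9820 in Scx+ at day 7. At day 14, 5101 passed in Scx- and 7987 in Scx+. With so many genes called, these passes do not set Csf3r and Cxcr2 apart. For day 14 against day 7, 1443 genes passed in Scx- and 796 in Scx+, where limma called 0.0301% of 16625 genes. The authors' deposited table gives Csf3r day 14 against day 7 as -1.35 ± 0.37 in Scx- (adjusted p = 0.00669) and -1.09 ± 0.25 in Scx+ (adjusted p = 0.00132), so that both genotypes passed there. It also passes S100a8 for Scx+ day 14 against day 7, at -1.38 ± 0.43 (adjusted p = 0.0361, the authors' deposited table), and for Scx- day 14 against control, at 2.36 ± 0.89 (adjusted p = 0.0315). Between genotypes the authors' deposited table passes none of the 6 at either day, where 755 of its genes passed at day 7 and 177 at day 14.

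Other genes of neutrophils were taken from fixed lists. Of 18 mature neutrophil genes, 16 were tested, and 11 were higher than the control in Scx- at day 7, 13 in Scx+ at day 7, 12 in Scx- at day 14 and 9 in Scx+ at day 14. In the same 4 comparisons 32.3%, 33.8%, 25.5% and 30.9% of all genes tested were higher, shares that stand beside the counts of each list that follows. Without the muscle-rich pair, 8 of the 16 were higher than the control in Scx- at day 14, where 28.9% of genes were. This share stands beside the later counts against the control without that pair. Padi4, which encodes the enzyme that citrullinates histones, was 82.2 to 236 units in Scx- at day 7 and 17.4 to 67.9 in Scx+ at day 7, and listed at 0 in the controls. Of the 5 lists of neutrophil genes beside the members it was the 1 gene that passed between genotypes, 2.46 ± 0.55 log2 units higher in Scx- at day 7 (adjusted p = 0.0418, limma). Leaving out any 1 of 10 of the 19 libraries removed that call, with adjusted p up to 0.194. Beside it stand the positive day 7 differences of the macrophage and NADPH oxidase genes, whose part in the Padi4 value was not tested. Fpr2, a receptor for formyl peptides, was also listed at 0 in all controls and was 110 to 306 units in Scx- and 44.8 to 91.6 in Scx+ at day 7. Slpi, a protease inhibitor, was 5.83 ± 1.05 log2 units higher than the control in Scx- at day 7 (adjusted p = 0.000184, limma) and 7.91 ± 1.05 higher in Scx+ at day 7 (adjusted p = 9.11e-06, limma). Wfdc21 was lower than the control in 3 of the 4 groups, at 58.5 to 125 units in Scx+ at day 14 against 687 to 988 in the controls.

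Of 14 other granule genes, 10 were tested; 6 were higher than the control in Scx- at day 7, 6 in Scx+ at day 7, 3 in Scx- at day 14 and 4 in Scx+ at day 14, and none was lower; the day 14 shares lie near those of all genes. Leaving out the muscle-rich pair, 2 were higher in Scx- at day 14. Mmp9, gelatinase B of the tertiary granules and a product of several other cell types, was 208 to 2253 units in Scx- at day 7 and 4818 to 11374 in Scx+ at day 7, against 5.32 to 65.6 in the controls. Its day 7 difference, Scx- minus Scx+, was -3.98 ± 0.90 log2 units, with no overlap between the groups, and missed the threshold (adjusted p = 0.0525, limma). Chil3, a chitinase-like protein also made by macrophages, was 6.63 ± 1.12 log2 units higher than the control in Scx- at day 7 (adjusted p = 0.000118, limma). Mmp8, neutrophil collagenase, was 34.9 to 87.5 units in Scx- at day 7 and 5.65 to 41.8 in Scx+ at day 7, against at most 1.35 in the controls. Ltb4r1, a leukotriene B4 receptor, was 94.9, 104, 130 and 168 units in Scx- at day 7, against 0, 41.1 and 89.5 in the controls. The difference was 2.63 ± 0.81 log2 units (adjusted p = 0.0104, limma), and 0.97 without control replicate 1, the library at 0 (adjusted p = 0.0340, limma).

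All 6 NADPH oxidase genes, which build the enzyme of the respiratory burst in neutrophils and macrophages alike, were higher than the control in both day 7 groups, and 5 of 6 in both day 14 groups, also without the muscle-rich pair in Scx-. Ncf4 was 3.37 ± 0.34 log2 units higher in Scx- at day 7 (adjusted p = 6.28e-07, limma) and 2.05 ± 0.34 higher in Scx+ at day 7 (adjusted p = 7.12e-05, limma). Of 13 signals that recruit or expand neutrophils, 11 were tested and 7 were higher than the control in Scx- at day 7, 8 in Scx+ at day 7, 9 in Scx- at day 14 and 5 in Scx+ at day 14; without the muscle-rich pair 7 were higher in Scx- at day 14. Cxcl5, a ligand of Cxcr2, was 111 to 949 units in Scx- and 330 to 908 in Scx+ libraries at day 7, then 10.7 to 541 in Scx- and 26.2 to 64.5 in Scx+ libraries at day 14, against at most 1.28 in the controls. Cxcl2, another ligand, was listed at 0 in all controls and was 10.6 to 118 units in Scx- and 27.8 to 374 in Scx+ at day 7. Among 6 granulocyte transcription factor genes, 4 were tested: Spi1, which encodes PU.1, and Cebpd were higher than the control in all 4 groups, while Cebpa was lower in Scx+ day 7, Scx- day 14 and Scx+ day 14, though not in Scx- day 14 without the muscle-rich pair. Cebpb, the fourth, was 1.05 ± 0.28 log2 units lower in Scx+ at day 14 (adjusted p = 0.00472, limma) and passed in no other comparison with the control. Cebpe, a factor of late granule genes, was not tested, at most 6.83 units in any library and listed at 0 in the controls.

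**Figure D4:**
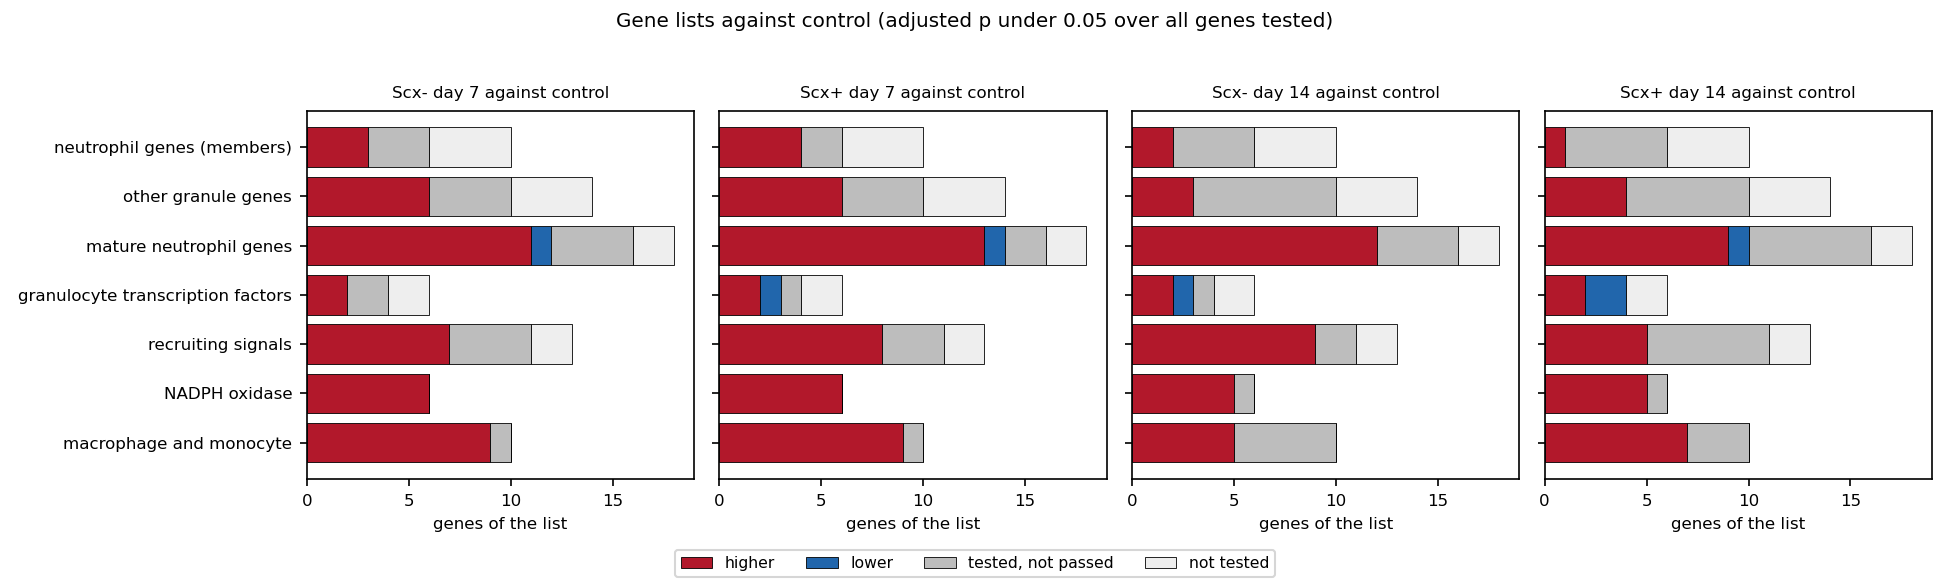
Number of genes of each list that were higher or lower than the control at an adjusted p of 0.05 over all genes tested, that were tested and did not pass, or that were not tested, for each stimulated group. Among the 10 neutrophil members 3, 4, 2 and 1 were higher in Scx- day 7, Scx+ day 7, Scx- day 14 and Scx+ day 14.

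The genes whose pattern was most like the members' were found by Pearson correlation, over the 19 libraries, with the mean standardised log2 value of the 6 tested members; this is a description, since the libraries fall into groups that differ. The 6 most alike, members left out, were Tbc1d31 (0.88), Asprv1 (0.86), Gm5483 (0.86), Cxcl5 (0.84), Map3k14 (0.84) and Mirt2 (0.84). Among the members themselves the same correlation was 0.89 for S100a8, 0.85 for S100a9, 0.85 for Cxcr2, 0.71 for Csf3r, 0.53 for Camp and 0.30 for Ltf, each of which is itself part of that mean. Asprv1 and Cxcl5 belong to the fixed lists of mature neutrophil genes and recruiting signals. Gm5483 was 6.48 to 18.1 units in Scx- and 7.80 to 25.8 in Scx+ at day 7, 7.58 to 36.6 in Scx- and 0 to 10.3 in Scx+ at day 14, and listed at 0 in the controls.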

How the data were processed

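Total RNA of 19 mouse plantaris tendon libraries had been sequenced. The table used gives, for every gene, the scaled signal of each library as the authors deposited it; the submitters' processing notes name FastQC, STAR, DESeq2 and the build mm10, without versions or roles. The authors' second deposited table gives log2 fold changes, standard errors and adjusted p-values for 8 comparisons, and served only where named. Low signal values repeat in steps, of 1.28 to 1.99 deposited units in control libraries and 0.592 to 1.12 in stimulated libraries. The share lying within 0.1 of a whole step was 36.8% to 37.8% per control library and 50.1% to 67.6% per stimulated library, where chance gives 20%. Of the members' 135 values above 0, 79 were whole steps within 0.02. Among them was every value above 0 of S100a8, S100a9, Camp, Elane, Ly6g and Ngp, but none of Csf3r or Cxcr2. Over all genes depth is unknown, and no counting interval or limit is given. A number of libraries of 3 or 4 per group limits the precision.

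Signal was rescaled by medians of ratios over 13703 genes (factors 0.838 to 1.09). Of 24972 genes, 16625 reached 10 units in 3 or more libraries, and these were tested as log2(value + 2) with limma 3.58.1 in R 4.3.3 (trend, robust moderation), all 5 groups in 1 fit, with Benjamini-Hochberg adjustment over all genes tested and 0.05 as the threshold; the pipeline was tested on simulated data. Members and lists were chosen with earlier results of these data known. Named genes are all 10 members, up to 4 passing genes per list with the largest change, and the 6 genes most alike; a few values of other list genes were added after they were seen. Alternatives were library totals, no rescaling, pseudocounts of 0.5 and 10, no filter, a filter of 1 ppm, the replicate number as a block, only the groups compared, a muscle covariate (stimulated groups only), and leaving out each library. A fit without robust moderation and one without Scx- day 14 replicates 1 and 2 were chosen after seeing the data, as were the counts per list without that pair and the named list genes with each library left out. Replicate numbers did not pair the samples. Positions are from GENCODE M21 (GRCm38), and promoter bases from RefSeq (GRCm38.p6). How reads shared by close paralogues were assigned is not given in the sources used here.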

Additional observations from a re-analysis of the deposited data

Results flagged for a closer look

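Within groups of 4 libraries, 39 sets of values of the members were searched for a single library far from the other 3, by Dixon's ratio of gap to range against its 95% critical value. Of these, 12 had one, where chance gives about 1 in 20. A group with 3 libraries listed at 0 always meets the criterion, so a signal of a few units is enough. Ly6g stood alone at 7.998 units in Scx- day 14 replicate 1 and at 2.67 in Scx+ day 14 replicate 4. Elane stood alone at 0.613 in Scx- day 7 replicate 2, at 8.58 in Scx+ day 7 replicate 1 and at 2.67 in Scx+ day 14 replicate 4. Ngp stood alone at 5.52 in Scx- day 7 replicate 2, at 75.4 in Scx- day 14 replicate 1 and at 13.4 in Scx+ day 14 replicate 4. Mpo was 15.2 in Scx- day 14 replicate 1, against 2.47 in the next library. Ltf was 10.9 in Scx- day 7 replicate 3, against 1.24 in the next library. Cxcr2 was 101 in Scx- day 7 replicate 1, against 24.1 in the next, and 46.6 in Scx+ day 14 replicate 1, against 4.49 in the next. Scx- day 14 replicate 1 and Scx+ day 14 replicate 4 each account for 3 of the 12.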

How the results depend on the processing

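Beside the fit reported, the alternatives gave 522 values for the members' log2 differences and 999 with 1 library left out; of these 490 and 958 kept their direction and their side of the threshold. The calls of Csf3r against the control held under every alternative run. Library totals moved the median of all genes by 0.456 to 0.673 log2 units in the comparisons with the control, and no rescaling by -0.327 to 0.0142. Members higher than the control in Scx+ at day 14 numbered 2 with library totals, 3 with a pseudocount of 0.5, 2 with the stricter filter, 2 with the replicate number as a block and 3 without the muscle-rich pair, against 1. In Scx- at day 14 they numbered 4 with library totals, 4 with the replicate block and 1 with only the groups compared, against 2. Without the muscle-rich pair 1 of the 5 members then tested was higher there, where 28.9% of genes were. For the other counts under alternatives in this paragraph, the share of all genes called is not given here. Those counts are not read against all genes. Counts that moved by at most 1.5 times were 3 in Scx- at day 14 with a pseudocount of 0.5 and, in Scx+ at day 7, 3 with the stricter filter, against 4. In Scx- at day 7 they were 4 with library totals and 2 with a pseudocount of 10, the stricter filter or only the groups compared, against 3. With no filter 4 members passed in Scx- at day 7, but of these Elane, not tested in the main fit, was lower (-2.05 log2 units, adjusted p = 0.0459, limma). In Scx- day 14 against day 7, 0 members passed with the muscle covariate, against 1. The replicate block changed no other count, and replicate numbers did not pair the samples, their correlations running from -0.428 to 0.350. With the stricter filter, and in Scx- at day 7 with only the groups compared, Cxcr2 missed the filter and was not tested. Those day 7 counts are therefore without it. The cause of the other changes was not tested. Leaving out 1 library gave counts of 2 to 3 in Scx- day 7, 3 to 4 in Scx+ day 7, 1 to 4 in Scx- day 14 and 1 to 2 in Scx+ day 14 against the control, 0 to 1 in Scx- day 14 against day 7, and 0 to 0 in the other comparisons.

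Signs turned as follows, in values that did not pass. With library totals Camp against the control was 0.068 in Scx- day 7 and 0.16 in Scx+ day 14. Between genotypes, Csf3r at day 14 was -0.10 with no rescaling, Ltf at day 7 was 0.036 with a pseudocount of 10, and Ltf at day 14 was -0.32 with the muscle covariate. Without the muscle-rich pair, Scx- minus Scx+ at day 14 was -0.42 for S100a8, -0.65 for S100a9, -1.45 for Cxcr2, -0.53 for Camp and -0.10 for Csf3r, and the change of the genotype effect was -0.36 for Cxcr2. Without that pair Scx- day 14 was -0.86 for Camp against the control, and against day 7 it was -0.95 for S100a8, -1.44 for S100a9 and -0.37 for Camp. With 1 library left out, Camp against the control ran from -0.17 to 0.52 in Scx+ day 7, -0.22 to 1.12 in Scx- day 14 and -0.62 to 0.13 in Scx+ day 14. Scx- minus Scx+ ran from -0.38 to 0.30 for Ltf at day 7, and at day 14 from -0.39 to 0.96 for Ltf, -0.21 to 1.61 for Cxcr2 and -0.19 to 0.30 for Csf3r. The change of the genotype effect ran from -0.36 to 0.99 for Ltf. Scx- day 14 against day 7 ran from -0.12 to 1.37 for S100a8, -0.40 to 1.496 for S100a9 and -1.60 to 0.22 for Cxcr2. The depth behind the values is unknown, and Ly6g, Mpo, Elane and Ngp were too low to be tested.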
